A study of Homo sapiens with 9 samples.

Results

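The genes described here encode 10 inflammatory chemokines and cytokines (CXCL1, CXCL2, CXCL3, CXCL5, CXCL6, CXCL8, CXCL16, CCL20, IL6 and IL1A), measured by RNA-seq in 9 libraries of OVCAR5, an established human ovarian cancer cell line. They were listed by symbol and matched through their Ensembl identifiers. All 10 were among the 60649 genes of the count table, and all 10 were among the 19674 genes left by the filter on low counts. CXCL5 had been selected on its values in these same libraries, because it was higher in SM2 and lower in SM4 than in NC, and the list was drawn up with that known. Its values are therefore given as a description with no test. The question put to the other genes was whether they, and the neighbours of CXCL5 on chromosome 4, had the same opposite pattern.

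Each group (NC, SM2 and SM4) had 3 libraries. The cells of all groups were stable lines made by lentiviral transduction followed by puromycin selection and expansion, and no drug treatment is given for these libraries. SM2 and SM4 are labelled as knockdowns of METTL3, the catalytic subunit of the m6A RNA methyltransferase, but which hairpin each carries is not stated. NC is labelled as a parental control, whereas the study's methods name a control hairpin. For the libraries labelled SM4 a source field names other OVCAR lines, although their cell line field reads OVCAR5. Nothing states that the libraries of a group came from separate cultures, so the p-values measure only the spread between these libraries, which may be technical.

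METTL3 itself was at 36.3, 34.4 and 36.6 counts scaled to library size (CPM) in the libraries labelled NC, at 37.1, 39.8 and 40.0 CPM in those labelled SM2, and at 60.6, 57.5 and 62.4 CPM in those labelled SM4. It was thus called higher in SM4 than in NC (log2 fold change 0.75 ± 0.0539 SE, adjusted p = 2.21e-09) and not called in SM2 (0.12 ± 0.0549, adjusted p = 0.12), which goes against the knockdown labels. Every direction below is a direction between labels, not between METTL3 levels, and which group is the control remains in doubt. The labels may have been exchanged among the groups. If the libraries labelled SM4 were the control and NC a knockdown, SM2 against NC would no longer compare knockdown with control. SM4 against NC would compare control with knockdown, so genes lower in SM4 would be higher in that knockdown. CXCL5, lowest in SM4, would then be higher in both other groups, with no opposite pattern. Library totals ranged from 44103272 to 63693728 counts. Of the epithelial and ovarian carcinoma markers 7 of 8 were tested, and their summed level was 9929 to 10301 CPM in NC, 11332 to 11812 CPM in SM2 and 10862 to 11537 CPM in SM4, with WT1 not tested. Against NC, 4 of these markers were higher and 2 lower in SM2, and 3 were higher and 1 lower in SM4. Of all genes tested, 22.3% were called in SM2 and 21.2% in SM4 against NC. MUC16 was at 7.31 to 9.7 CPM in NC, 17 to 29.9 CPM in SM2 and 8.18 to 14.1 CPM in SM4, and CDH1 at 796 to 830, 624 to 729 and 613 to 641 CPM. Leukocyte markers summed to 41.4 to 45.5 CPM in NC, 59.3 to 63.3 CPM in SM2 and 41.5 to 44.9 CPM in SM4, with 3 of 9 tested and AIF1 and TYROBP at 0 counts in every library. That sum was higher in SM2, as CXCL5 was, and its NC and SM4 ranges overlapped. It consisted mainly of LYZ, which was at 35.3 to 38.7 CPM in NC, 50.3 to 53.8 CPM in SM2 and 31.1 to 33.7 CPM in SM4. Against NC, LYZ was called higher in SM2 (0.50, adjusted p = 1.25e-06) and lower in SM4 (-0.17, adjusted p = 0.0376). These are the directions of CXCL5. CD14 went another way, at 5.32 to 6.32 CPM in NC, 7.99 to 8.79 CPM in SM2 and 9.84 to 10.6 CPM in SM4. The part of these markers in the results was not tested. Fibroblast markers summed to 21.3 to 27.5 CPM over all libraries, with 3 of 7 tested. Endothelial markers summed to 5.42 to 5.85 CPM in NC, 7.79 to 8.9 CPM in SM2 and 13.1 to 15.2 CPM in SM4, with PECAM1 as the only one of 4 tested and KDR at 0 counts. In bulk RNA, fewer expressing cells and less RNA per cell cannot be told apart.

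Chemokines are small secreted proteins that guide leukocyte migration. CXCL1, CXCL2, CXCL3, CXCL5, CXCL6 and CXCL8 belong to the CXC chemokines with a Glu-Leu-Arg motif. These bind CXCR2, some of them also CXCR1, and attract neutrophils. Their genes lie in a cluster on the long arm of chromosome 4 together with PPBP, which encodes the precursor of CXCL7. CXCL16 is made as a membrane-anchored ligand of CXCR6 that can be shed by ADAM proteases, and CCL20 is the ligand of CCR6. IL6 signals through IL6R and the shared subunit IL6ST, and IL1A signals through IL1R1 with IL1RAP. Transcription of most of these genes is induced by NF-kappaB and AP-1, and many of their mRNAs carry AU-rich elements in the 3′ untranslated region that mark them for rapid decay. Tumour cells, including those of ovarian cancer, are a known source of several of these factors.

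The promoters are shown first because the chromosome 4 genes with unlike patterns have closely related ones. Each line gives the 120 bases before the RefSeq transcription start, on the strand of the gene, from RefSeq (GRCh38.p14). Capitals mark GGAATTTCC, or in IL6 and CCL20 the NF-kappaB consensus match.
CXCL8: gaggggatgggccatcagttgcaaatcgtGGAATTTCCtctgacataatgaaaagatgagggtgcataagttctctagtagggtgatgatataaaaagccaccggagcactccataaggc
CXCL6: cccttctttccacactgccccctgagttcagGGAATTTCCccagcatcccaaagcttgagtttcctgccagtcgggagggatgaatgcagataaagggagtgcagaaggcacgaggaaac
CXCL1: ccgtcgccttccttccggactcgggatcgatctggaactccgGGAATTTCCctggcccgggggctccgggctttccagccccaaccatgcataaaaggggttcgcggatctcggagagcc
PPBP: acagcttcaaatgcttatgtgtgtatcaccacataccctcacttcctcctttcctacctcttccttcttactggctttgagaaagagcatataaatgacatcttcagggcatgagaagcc
CXCL5: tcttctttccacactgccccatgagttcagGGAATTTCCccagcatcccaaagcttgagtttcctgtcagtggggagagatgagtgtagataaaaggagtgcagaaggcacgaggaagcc
CXCL3: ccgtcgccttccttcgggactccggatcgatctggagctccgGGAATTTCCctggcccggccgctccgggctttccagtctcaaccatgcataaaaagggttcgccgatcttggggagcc
CXCL2: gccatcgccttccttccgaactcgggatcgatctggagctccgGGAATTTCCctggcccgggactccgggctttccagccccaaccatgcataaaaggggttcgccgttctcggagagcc
IL6: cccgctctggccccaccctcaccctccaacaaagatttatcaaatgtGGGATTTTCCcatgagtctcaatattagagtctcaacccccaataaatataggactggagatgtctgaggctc
CCL20: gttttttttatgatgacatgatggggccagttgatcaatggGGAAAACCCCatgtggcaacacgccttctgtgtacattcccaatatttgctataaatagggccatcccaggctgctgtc

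These stretches lie at chr4:73740449-73740568 (CXCL8, plus strand), chr4:73836558-73836677 (CXCL6, plus), chr4:73869273-73869392 (CXCL1, plus), chr4:73988191-73988310 (PPBP, minus), chr4:73998678-73998797 (CXCL5, minus), chr4:74038690-74038809 (CXCL3, minus), chr4:74099196-74099315 (CXCL2, minus), chr7:22727080-22727199 (IL6, plus) and chr2:227813722-227813841 (CCL20, plus). Windows of 300 bases, 250 before and 50 after the start, were searched on both strands. GGAATTTCC was found in CXCL1, CXCL2, CXCL3, CXCL5, CXCL6 and CXCL8, at -78, -77, -78, -90, -89 and -91 counted from the start to its first base, and in 0.461% of all 35116 windows. The longer NF-kappaB consensus, which overlaps that motif, was found in 5.91% of windows and in 7 of the 9 listed genes with a window, namely CXCL1, CXCL2, CXCL3, CXCL5, CXCL6, IL6 and CCL20. TGANTCA, an AP-1 type sequence, was found in CXCL8 at -137 and in the windows of IL1A, and in 7.71% of all windows. TATAAA was found in CXCL8, CCL20, PPBP and 1 window of IL1A, and in 11.5% of all windows. CXCL16 had no window to search. A match is a description of letters and does not show binding.

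Aligned over 250 bases, the promoters of CXCL5 and CXCL6 were 85.3% identical and those of CXCL1 and CXCL3 81.4% identical. CXCL2 was 73.4% identical to CXCL3 and 70.1% to CXCL1. The promoter of PPBP was 50.5% identical to that of CXCL5, which lies within the 44.3% to 54.3% of the other unlike pairs. The gene with the promoter most like that of CXCL5 was therefore CXCL6, and the tested gene nearest to CXCL5 was PPBP. The part of promoter sequence or of position in the patterns was not tested.

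By label, most of the listed genes had their highest mean in NC and their lowest in SM4. CXCL5 is left out of the counts that follow, since it was selected on these comparisons. Of the 9 other genes, SM4 against NC called 8 lower and none higher, with CXCL16 not called, beside 21.2% of all genes called (10.2% lower and 11.0% higher). SM2 against NC called 6 lower (CXCL1, CXCL6, CXCL8, CCL20, IL6 and IL1A) and none higher, and left CXCL2, CXCL3 and CXCL16 not called, beside 22.3% of all genes called (10.3% lower and 12.0% higher). SM4 against SM2 called 7 lower and 1 higher (IL6), beside 12.8% of all genes called (6.76% lower and 6.04% higher). The median log2 fold change of the 9 genes was -0.26 for SM2 over NC, -0.88 for SM4 over NC and -0.57 for SM4 over SM2, and the median of all genes was -0.00 in each. The libraries of the groups compared did not overlap for 7, 8 and 8 of the 9 genes in that order, beside 35.2%, 38.4% and 28.3% of all genes tested. The comparisons of SM2 and SM4 with NC share the NC libraries. Calls are at an adjusted p below 0.05 in the quasi-likelihood test of edgeR with Benjamini-Hochberg adjustment over all 19674 genes, and errors of log2 fold changes are standard errors.

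**Figure D1:**
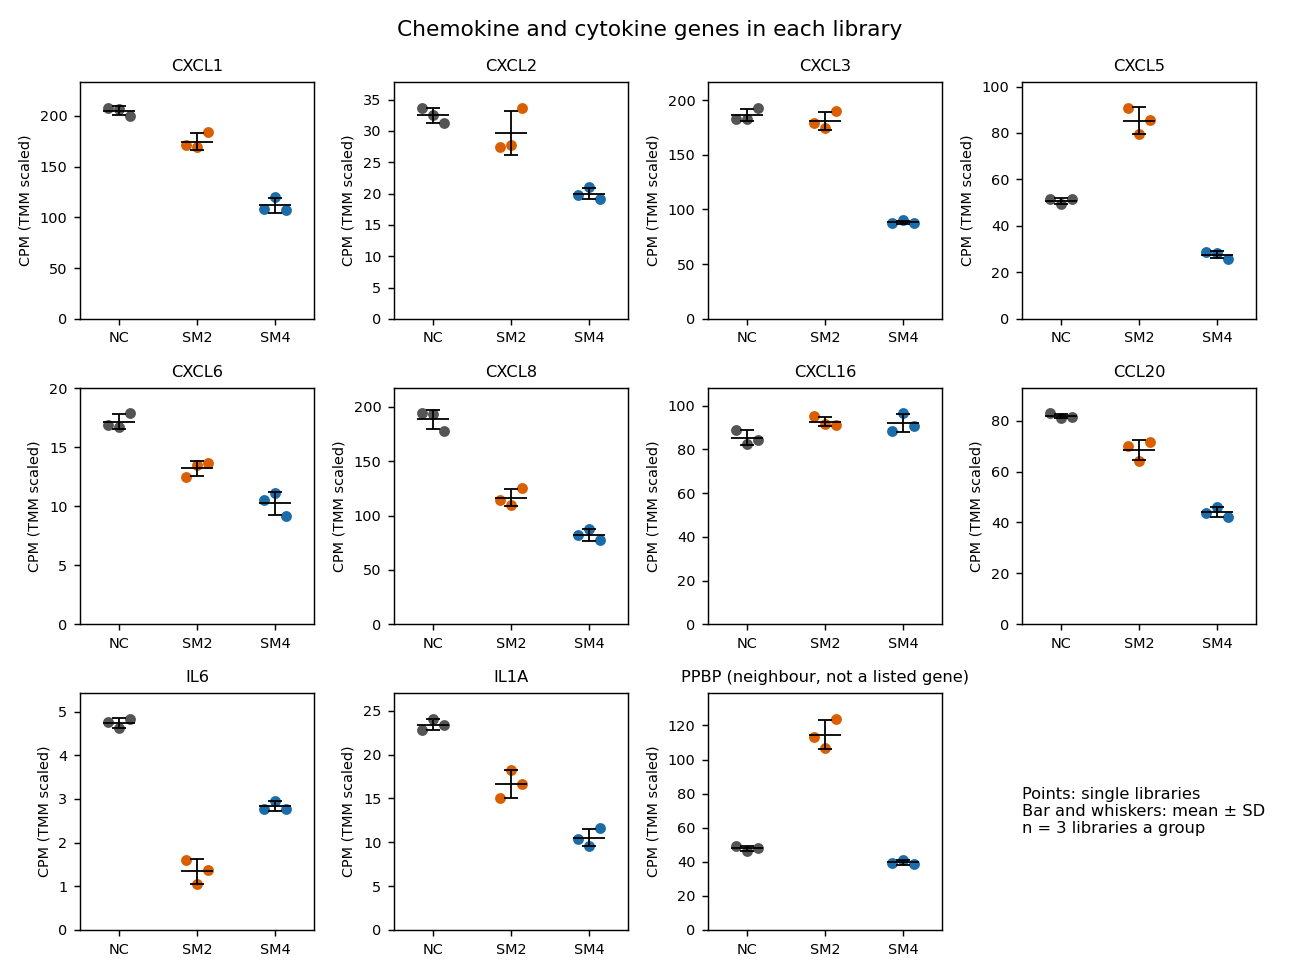
CPM after TMM scaling (y axis, from 0) of each listed gene and of PPBP in the libraries labelled NC, SM2 and SM4 (x axis), with points for single libraries and bars for the mean ± SD of 3 libraries. CXCL5 and PPBP are highest in SM2, IL6 is lowest in SM2, CXCL16 differs little, and the other genes are lowest in SM4.

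**Figure D2:**
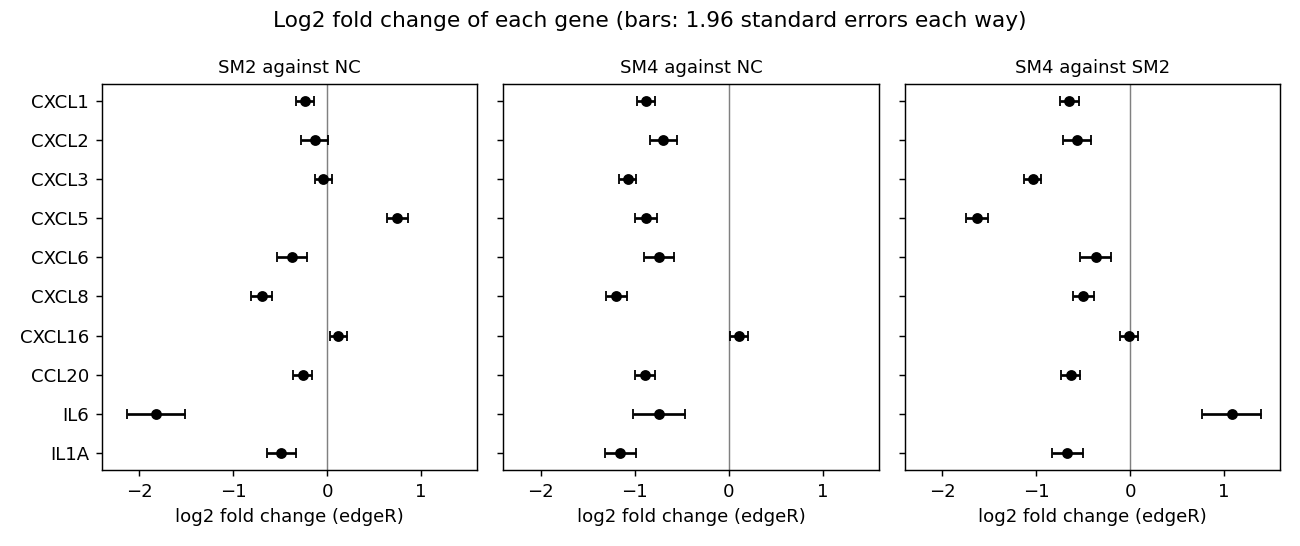
Log2 fold change (x axis) of each listed gene (y axis) with one panel for each pair of groups, in the order SM2 over NC, SM4 over NC, SM4 over SM2, and bars of 1.96 standard errors on each side. CXCL5, selected on these values, lies at 0.75 in the first panel and at -0.88 in the second, and IL6 is the gene furthest left in the first (-1.82).

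Among the chemokines with a Glu-Leu-Arg motif is CXCL8, also named interleukin 8. It was at 194, 193 and 178 CPM in NC, at 114, 110 and 125 CPM in SM2 and at 81.7, 87.7 and 77.2 CPM in SM4. The groups did not overlap. Against NC the log2 fold change of CXCL8 was -0.70 ± 0.0561 in SM2 (adjusted p = 1.47e-08) and -1.20 ± 0.0567 in SM4 (adjusted p = 4.15e-12), and SM4 was also lower than SM2 (-0.50 ± 0.0566, adjusted p = 2.83e-06). CXCL6, the gene with the promoter closest to that of CXCL5, was at 16.9, 16.7 and 17.9 CPM in NC, at 12.5, 13.5 and 13.7 CPM in SM2 and at 10.5, 11.1 and 9.15 CPM in SM4. It went the same way as CXCL8, without overlap between groups. Its log2 fold changes were -0.37 ± 0.0815 in SM2 (adjusted p = 0.00195), -0.74 ± 0.082 in SM4 (adjusted p = 9.57e-07) and -0.37 ± 0.0833 between SM4 and SM2 (adjusted p = 0.00462).

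CXCL1, CXCL2 and CXCL3 encode the closely related growth-regulated (GRO) chemokines. CXCL1 was at 208, 207 and 200 CPM in NC, at 171, 169 and 184 CPM in SM2 and at 108, 120 and 107 CPM in SM4. Its groups did not overlap, and it was called lower in SM2 (-0.23 ± 0.0492, adjusted p = 0.00145), in SM4 (-0.88 ± 0.0497, adjusted p = 6.63e-11) and in SM4 against SM2 (-0.65 ± 0.0497, adjusted p = 1.78e-08). CXCL3 was at 183, 183 and 193 CPM in NC and at 179, 174 and 190 CPM in SM2, ranges that overlap, but at 87.2, 90.0 and 87.5 CPM in SM4. The log2 fold change of CXCL3 was -0.04 ± 0.0447 in SM2 (adjusted p = 0.593, 95% interval -0.13 to 0.05) and -1.08 ± 0.0456 in SM4 (adjusted p = 5.63e-13). CXCL2 was at 33.7, 32.5 and 31.3 CPM in NC, at 27.5, 27.7 and 33.7 CPM in SM2 and at 19.8, 21 and 19.2 CPM in SM4. Its SM2 libraries overlapped with NC through replicate 3 alone. CXCL2 was not called in SM2 (-0.13 ± 0.0725, adjusted p = 0.221), except without SM2 replicate 3, where the log2 fold change was -0.23 (adjusted p = 0.00839). It was lower in SM4 than in NC (-0.70 ± 0.0735, adjusted p = 4.94e-07) and than in SM2 (-0.57 ± 0.0739, adjusted p = 1.66e-05). These paralogs share sequence: of the 50-base stretches of their transcripts, 5.33% of those of CXCL1, 10.1% of those of CXCL2 and 5.26% of those of CXCL3 occur in another gene. Reads confined to such stretches could not be assigned to one of them, and the number of such reads was not measured. In SM2 the GRO genes thus split, with CXCL1 called lower and CXCL2 and CXCL3 not, a split that was not tested as a difference between genes.

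CXCL5, a neutrophil chemokine of epithelial cells and the gene around which the list was built, was at 51.8, 49.3 and 51.4 CPM in NC, at 90.9, 79.4 and 85.8 CPM in SM2 and at 28.6, 28.2 and 25.9 CPM in SM4. Every SM2 library was above and every SM4 library below all NC libraries. The log2 fold change was 0.75 in SM2, -0.88 in SM4 and -1.63 between SM4 and SM2. The gene (ENSG00000163735.7) lies on the minus strand at chr4:73995642-73998677 and overlaps by 745 bases a long noncoding RNA on the other strand, ENSG00000287037, whose highest level in any library was 0.146 CPM. In CPM the ratio of CXCL5 to CXCL6 was 3.07, 2.95 and 2.87 in NC, 7.26, 5.86 and 6.28 in SM2 and 2.72, 2.55 and 2.83 in SM4. The ratio was thus higher in every SM2 library than in any other library.

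The opposite pattern of CXCL5, called higher in SM2 and lower in SM4 against NC, was found in 58 of all genes tested (0.295%), CXCL5 among them, and in 0 of the 9 other listed genes. Around the start of CXCL5, 48 genes are annotated within 1 Mb on each side, of which 19 were tested and 13 of those are not listed genes. Among these 13, PPBP alone had the pattern of CXCL5. PPBP, whose product is processed to the platelet chemokine CXCL7, starts 10.5 kb from the start of CXCL5 on the same strand. It was at 49.3, 46.3 and 47.8 CPM in NC, at 113, 107 and 124 CPM in SM2 and at 39.0, 41.3 and 38.4 CPM in SM4. Its groups did not overlap. PPBP was higher in SM2 than in NC (1.26 ± 0.0556, adjusted p = 2.56e-12), lower in SM4 than in NC (-0.27 ± 0.0565, adjusted p = 0.00131) and lower in SM4 than in SM2 (-1.53 ± 0.056, adjusted p = 1.36e-13). Its difference from NC was larger than that of CXCL5 in SM2 and smaller in SM4. The ratio of CXCL5 to PPBP in CPM was 1.06 ± 0.0124 in NC, 0.747 ± 0.0573 in SM2 and 0.697 ± 0.0307 in SM4 (SD, n = 3). PPBP overlaps a protein-coding gene on its own strand (ENSG00000288796, not analysed here) by 1752 bases, and 32.2% of its 50-base stretches occur there too, so its counts could include reads of that gene, which were not measured.

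**Figure D3:**
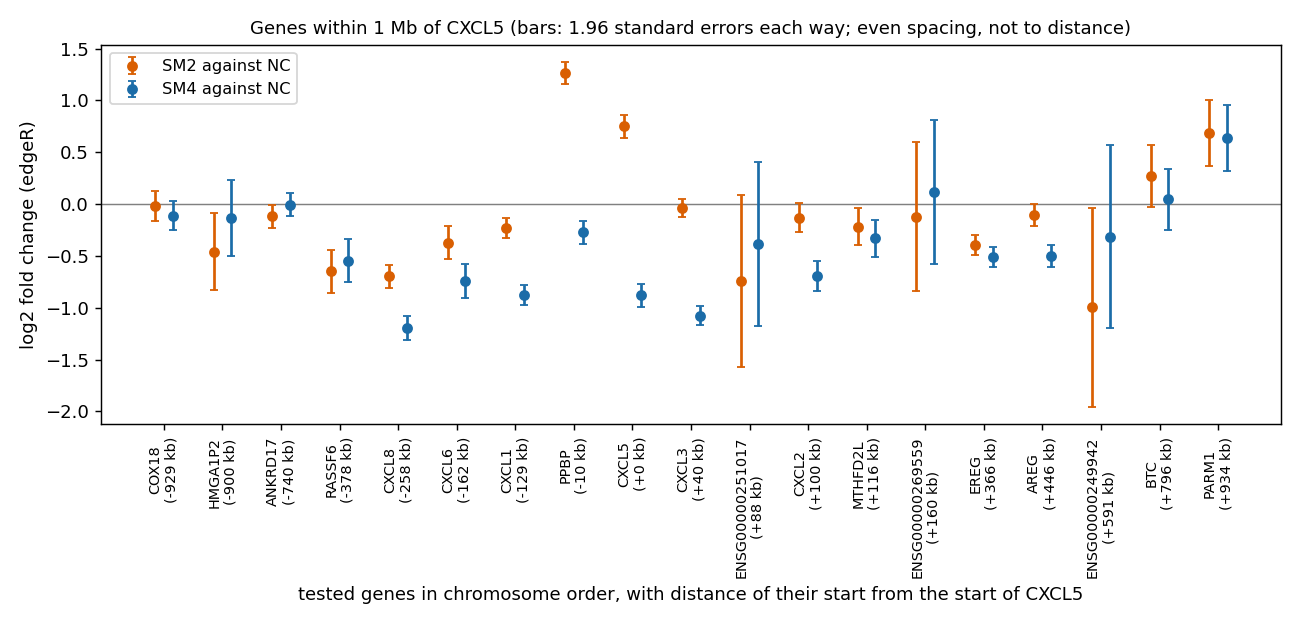
Log2 fold change (y axis) of the 19 tested genes within 1 Mb of CXCL5 in SM2 against NC and in SM4 against NC, in chromosome order with the distance of each start from that of CXCL5 (x axis, even spacing), and bars of 1.96 standard errors on each side. PPBP (1.26 and -0.27) and CXCL5 (0.75 and -0.88) are the plotted genes with SM2 above 0 and SM4 below 0.

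On both sides of that pair lie genes without the pattern. CXCL3 starts 40.1 kb away on one side and CXCL1 129.3 kb away on the other, and neither was called higher in SM2. Of the 13 neighbours that are not listed genes, PPBP included, 2 were called higher, 2 lower and 9 not in SM2 against NC. Of the same 13, SM4 against NC called 1 higher and 5 lower and left 7 not called. Beside these counts, SM2 over NC called 22.3% of all genes tested (12.0% higher and 10.3% lower). SM4 over NC called 21.2% (11.0% higher and 10.2% lower). No test compared the neighbours with these shares. EREG, which encodes the EGFR ligand epiregulin and starts 366.5 kb away, was at 567 to 639 CPM in NC, 450 to 493 CPM in SM2 and 419 to 438 CPM in SM4 (log2 fold changes -0.39 and -0.51, adjusted p = 4.13e-06 and 1.11e-07). AREG, which encodes the EGFR ligand amphiregulin, was at 170 to 191 CPM in NC, 158 to 184 CPM in SM2 and 126 to 128 CPM in SM4. It was lower in SM4 (-0.50, adjusted p = 1e-06) and not called in SM2 (-0.10, adjusted p = 0.201). RASSF6, which encodes a protein of the RAS association domain family, was lower in SM2 (-0.65, adjusted p = 0.000122) and in SM4 (-0.55, adjusted p = 0.00056). MTHFD2L, which encodes a mitochondrial enzyme of folate metabolism, was lower in SM4 (-0.33, adjusted p = 0.0104), and PARM1 was higher in SM2 (0.68, adjusted p = 0.00415) and in SM4 (0.64, adjusted p = 0.00653). In SM4 against SM2, PPBP and AREG (-0.40, adjusted p = 3.89e-05) were called lower among the 13 and 11 were not called, beside 12.8% of all genes called.

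Summed over the 7 chemokine genes CXCL1, CXCL2, CXCL3, CXCL5, CXCL6, CXCL8 and PPBP, the level per transcript length was 566, 560 and 556 CPM per kb in NC, 538, 520 and 579 CPM per kb in SM2 and 289, 308 and 283 CPM per kb in SM4. The SM2 and NC ranges of the sum overlapped, while every SM4 library was below all others. CXCL5 and PPBP together made up 10.2% ± 0.27 of that sum in NC, 22.5% ± 0.445 in SM2 and 14.2% ± 0.199 in SM4 (SD, n = 3). With the length of all annotated exons in place of that of the main transcript, the shares were 14.5%, 30.3% and 19.4%. The share of CXCL8 was 20.5% ± 0.813 in NC, 13.0% ± 0.197 in SM2 and 17.1% ± 0.374 in SM4. CXCL1 and CXCL3 were the largest components in every group, at 31.2% and 30.9% in NC, 27.3% and 30.9% in SM2 and 32.4% and 28% in SM4. Because CXCL5 was selected on its pattern, these shares are a description with no test.

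**Figure D4:**
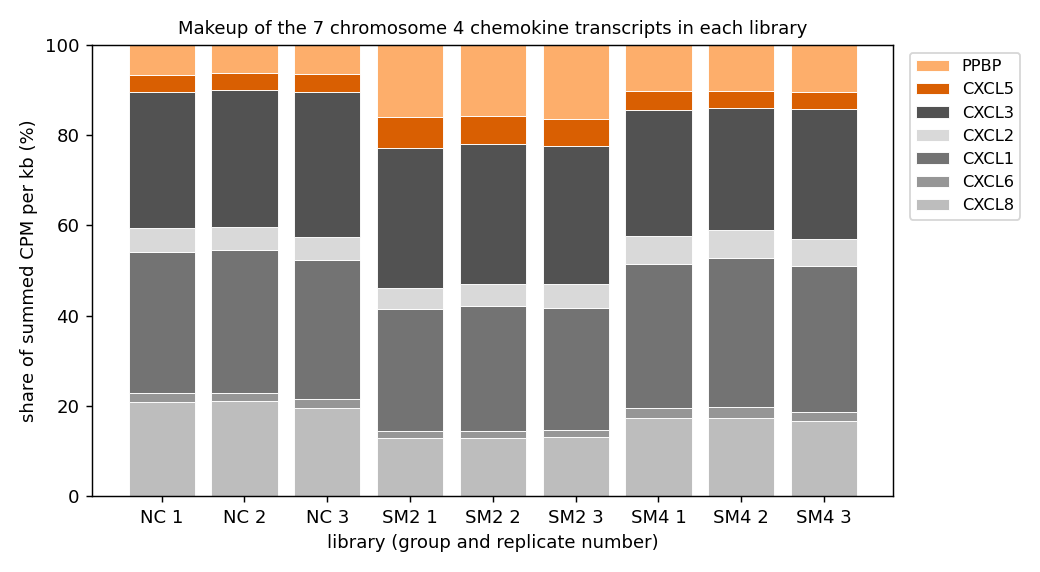
Share in percent (y axis) of each of the 7 chromosome 4 chemokine genes in their summed CPM per kb of transcript, as a stacked bar for each library (x axis), with CXCL5 and PPBP in orange. The orange part averages 10.2% in NC, 22.5% in SM2 and 14.2% in SM4.

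In level per transcript length, CXCL1 and CXCL3 led in NC at 175 and 173 CPM per kb, and their libraries overlapped. CXCL8 (115), CCL20 (98.1), CXCL16 (36.7), CXCL2 (29.2) and CXCL5 (20.9) followed in that order without overlap between neighbours. IL1A (11.6) and CXCL6 (11.2 CPM per kb) overlapped, and IL6 was lowest at 4.21 CPM per kb. In SM2, CXCL5 stood at 35.1 CPM per kb, above CXCL2 at 26.6 CPM per kb, with no overlap between their libraries. In SM4, CXCL5 was back below CXCL2, at 11.3 against 17.9 CPM per kb. IL6 remained the lowest in all groups.

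CCL20, which attracts CCR6-bearing lymphocytes and dendritic cells, lies on chromosome 2 and went the way of CXCL1. It was at 82.9, 81.2 and 81.4 CPM in NC, at 69.9, 64 and 71.4 CPM in SM2 and at 43.8, 46.2 and 42.2 CPM in SM4. The groups did not overlap. The log2 fold change of CCL20 was -0.26 ± 0.0516 in SM2 (adjusted p = 0.000873), -0.89 ± 0.0523 in SM4 (adjusted p = 1.13e-10) and -0.63 ± 0.0525 between SM4 and SM2 (adjusted p = 4.44e-08). CXCL16, on chromosome 17, was at 89.0, 82.4 and 84.4 CPM in NC, at 95, 91.7 and 91.2 CPM in SM2 and at 88.5, 96.5 and 90.6 CPM in SM4. Its SM2 libraries were all above NC, but by little, and its SM4 libraries overlapped with both. CXCL16 was not called in SM2 (0.12 ± 0.0481, adjusted p = 0.0824) or SM4 (0.11 ± 0.048, adjusted p = 0.123), with 95% intervals of 0.03 to 0.21 and 0.01 to 0.20. It was called in SM2 with upper-quartile factors (0.13, adjusted p = 0.044) and without SM2 replicate 3 (0.14, adjusted p = 0.0398).

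IL6, a cytokine of the acute-phase response, was at 4.77, 4.62 and 4.84 CPM in NC, at 1.6, 1.04 and 1.38 CPM in SM2 and at 2.76, 2.96 and 2.77 CPM in SM4. It was the only listed gene that was lowest in SM2, and its groups did not overlap. IL6 fell in SM2 (-1.82 ± 0.157, adjusted p = 3.82e-08) and in SM4 (-0.74 ± 0.142, adjusted p = 0.00061), and was higher in SM4 than in SM2 (1.08 ± 0.161, adjusted p = 7.71e-05). These levels rest on 209 to 283 counts per library in NC, 50 to 73 in SM2 and 142 to 187 in SM4, and the coefficient of variation in SM2 (21%) was the largest of all listed genes and groups, whose median was 4.56%. IL1A, an alarmin whose precursor calpain cleaves, was at 22.8, 24.1 and 23.4 CPM in NC, at 15.1, 18.3 and 16.7 CPM in SM2 and at 10.4, 9.59 and 11.6 CPM in SM4. Its groups did not overlap either. It fell in SM2 (-0.49 ± 0.0809, adjusted p = 0.000146) and in SM4 (-1.15 ± 0.0828, adjusted p = 2.17e-09), and SM4 was lower than SM2 (-0.67 ± 0.0842, adjusted p = 1.11e-05).

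The genes most like CXCL5 over the 9 libraries, by Pearson's r of log2 CPM among 13788 genes that have a symbol and average 1 CPM or more, were EMC10 (0.992), TP53INP2 (0.989), GCNT3 (0.989), ATF5 (0.984) and MARCKSL1 (0.983). EMC10 encodes a subunit of the endoplasmic reticulum membrane protein complex and was at 84.0 to 86.0 CPM in NC, 107 to 112 CPM in SM2 and 68.1 to 69.7 CPM in SM4. GCNT3, a glycosyltransferase of mucin-type glycans, was at 161 to 170 CPM in NC, 203 to 210 CPM in SM2 and 132 to 135 CPM in SM4. None of the listed genes was among these 5. PPBP ranked 131 (r = 0.916) and CXCL3 ranked 263 (r = 0.870), followed by CXCL2 (0.758), CXCL1 (0.735), CCL20 (0.723), IL1A (0.581), CXCL6 (0.529), CXCL8 (0.458) and CXCL16 (0.06), and IL6 had a negative r (-0.52). The points share the 3 groups, so these values mostly describe the relative distances between the group levels. A high r does not mean the same order of groups as CXCL5, since CXCL3 was not higher in SM2 than in NC.

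Of 35 other chemokines and cytokines, 21 were tested. In SM2 against NC 7 were higher and 4 lower, with a median log2 fold change of 0.17, and in SM4 against NC 3 were higher and 6 lower, with a median of -0.08. In SM4 against SM2 1 was higher and 6 lower (median -0.16). Of all genes tested, 22.3% were called in SM2 against NC and 21.2% in SM4 against NC. In SM4 against SM2 the share was 12.8%. The same shares apply beside the counts of the lists that follow. CCL2, a monocyte chemokine, was at 0.205, 0 and 0.137 CPM in NC, at 1.31, 1.33 and 1.92 CPM in SM2 and at 1.46, 0.870 and 1.11 CPM in SM4 (log2 fold changes 3.78 and 3.37, adjusted p = 3.62e-06 and 1.68e-05). CCL28, a mucosal chemokine, was at 248 to 268 CPM in NC and 280 to 282 CPM in SM2 but 109 to 117 CPM in SM4. It was called higher in SM2 than in NC (0.14, adjusted p = 0.0255), lower in SM4 than in NC (-1.17, adjusted p = 1.34e-13) and lower in SM4 than in SM2 (-1.30, adjusted p = 1.12e-13), the directions of CXCL5 with a small difference in SM2. IL1B, the secreted relative of IL1A, was at 15.8 to 17.2 CPM in NC, 7.05 to 7.96 CPM in SM2 and 8.65 to 9.68 CPM in SM4 (-1.15 in SM2, adjusted p = 4.01e-09). TNFSF10, which encodes the death ligand TRAIL, was higher in SM2 (1.25, adjusted p = 4.82e-09) and in SM4 (1.08, adjusted p = 2.92e-08). CSF2, which encodes the growth factor GM-CSF, was lower in SM4 (-1.04, adjusted p = 3.95e-07). In SM4 against SM2, IL32 (-0.76, adjusted p = 2.29e-07) and CSF1, the macrophage growth factor (-0.63, adjusted p = 1.63e-07), were lower.

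Of 10 receptors of these factors 6 were tested. CXCR1, CXCR2, CCR6 and ACKR1 did not pass the filter, and CCR6 and ACKR1 had 0 counts in every library. In SM2 against NC none of the 6 was higher and 3 were lower, among them IL1RAP (-0.36, adjusted p = 8.35e-05) and IL6R (-0.32, adjusted p = 0.0112). CXCR6, the receptor of CXCL16, was also lower (-1.50, adjusted p = 0.0402). Its levels were very low, at 0.183 to 0.423 CPM in NC and 0.0755 to 0.166 CPM in SM2. In SM4 against NC 1 was higher, namely IL1R1 (0.35, adjusted p = 0.00998), and 2 were lower, namely IL1RAP (-0.17, adjusted p = 0.0291) and the decoy receptor IL1R2 (-0.78, adjusted p = 0.0445). In SM4 against SM2 3 were higher and none lower, with IL1R1 at 0.41 (adjusted p = 0.0056) and IL1RAP at 0.18 (adjusted p = 0.036). CXCR6 had a log2 fold change of 1.91 (adjusted p = 0.0127), with 0.312 to 0.538 CPM in SM4. The median log2 fold changes were -0.30, -0.11 and 0.16.

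All 17 transcription regulators of these genes on the list (NF-kappaB subunits and inhibitors, AP-1 members and others) were tested, and 12 were not called in SM2 against NC. There 2 were higher, ATF3 (0.75, adjusted p = 0.00331) and CEBPD (0.24, adjusted p = 0.00565), and 3 were lower, including FOSL1 (-0.45, adjusted p = 3.38e-07) and JUN (-0.26, adjusted p = 0.00706). In SM4 against NC none was higher and 7 were lower. JUN, a subunit of AP-1, had the largest of these differences, at 40.9 to 47.0 CPM in NC, 35.8 to 39.6 CPM in SM2 and 22.6 to 25.9 CPM in SM4 (-0.85, adjusted p = 1.17e-08). FOSL1 (-0.46, adjusted p = 2.34e-07), CEBPD (-0.33, adjusted p = 0.000452) and NFKBIE (-0.20, adjusted p = 0.023) were also lower. CEBPD, a C/EBP family factor of the acute-phase response, therefore had the directions of CXCL5, higher in SM2 and lower in SM4 than NC, at 53.8 to 58.5 CPM in NC, 61.8 to 72.2 CPM in SM2 and 41.9 to 46.7 CPM in SM4. In SM4 against SM2 1 was higher, STAT3 (0.21, adjusted p = 0.00165), and 4 were lower, among them CEBPD (-0.57, adjusted p = 1.32e-06), JUN (-0.59, adjusted p = 4.27e-06) and NFKB2 (-0.22, adjusted p = 0.00158). RELA, the main activating subunit of NF-kappaB, was at 136 to 150 CPM in all libraries and was not called. The median log2 fold changes of the list were -0.01, -0.07 and -0.06.

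Of 10 factors that control the decay or stability of cytokine mRNAs, 7 were not called in SM2 against NC and 8 were not called in SM4 against NC. Of all genes tested, 22.3% and 21.2% were called in these comparisons. ZFP36L2, which binds AU-rich elements and promotes decay, was at 59.5 to 61.2 CPM in NC, 76.2 to 83.5 CPM in SM2 and 75.0 to 81.2 CPM in SM4 (0.41 and 0.39, adjusted p = 3.39e-06 and 5.45e-06). In SM2, ZFP36L1 was higher (0.14, adjusted p = 0.0272) and RC3H2 lower (-0.19, adjusted p = 0.0152). ZC3H12A, the RNase Regnase-1, was lower in SM4 than in NC (-0.40, adjusted p = 2.48e-06) and than in SM2 (-0.32, adjusted p = 7.15e-05), and RC3H2 was higher in SM4 than in SM2 (0.27, adjusted p = 0.00224). The list had median log2 fold changes of -0.01, 0.01 and -0.01. Among 5 proteases or protease subunits that release the membrane-bound or precursor forms, ADAM10, a sheddase of CXCL16, was higher in SM2 (0.24, adjusted p = 0.00088) and in SM4 (0.19, adjusted p = 0.00665). CAPN2 was lower in SM2 (-0.15, adjusted p = 0.00547), and CAPN1 was higher in SM4 than in NC (0.29, adjusted p = 1.24e-05) and than in SM2 (0.39, adjusted p = 5.86e-07). The other proteases were not called, and the medians were -0.06, 0.01 and 0.05.

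A feature that most of the listed mRNAs share, and that the list did not use, is the AU-rich element. Below are 30 bases of the 3′ untranslated region from 4 of them, written as DNA on the strand of the gene from GENCODE transcripts (hg38), with each ATTTA in capitals. In SM2 against NC, CXCL5 was higher, CXCL8 and IL6 were lower and CXCL2 was not called. All 4 were lower in SM4 than in NC. The part of the element in these differences was not tested.
CXCL2: aagtcttctATTTATTTATTTATTTATTTA
CXCL8: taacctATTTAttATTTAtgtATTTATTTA
CXCL5: caaacaatttgaatataaATTTAtcATTTA
IL6: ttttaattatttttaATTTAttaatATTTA

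They lie at chr4:74097590-74097619 (CXCL2, minus strand), chr4:73743108-73743137 (CXCL8, plus), chr4:73996688-73996717 (CXCL5, minus) and chr7:22731697-22731726 (IL6, plus), all in the last exon. The whole region held 10 copies of ATTTA in CXCL2, 9 in CXCL8, 11 in CXCL5 and 6 in IL6, which is 14, 7.19, 5.51 and 14.1 copies per kb. The median was 6.77 per kb over the listed genes and 1.71 per kb over 13271 tested genes with such a region of at least 100 bases. CXCL5, with its opposite pattern, was thus close to CXCL6 (5.36 per kb) and within the range of the genes that were lower in SM2. CXCL16, the gene not called in any comparison, had 1 copy (1.03 per kb), and 62.8% of tested genes had at least that density. PPBP had 3 copies (3.6 per kb). GGACT is 1 of several sequences that match the m6A consensus, and the others were not counted. It was absent from the coding and 3′ untranslated sequence of 7 of the 10 listed genes, which have short transcripts. Among the same 13271 tested genes it was absent from 8.96%. Letters in a transcript do not show that a site is methylated or bound.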

How the data were processed

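RNA from 9 OVCAR5 libraries (3 each labelled NC, SM2 and SM4) was analysed. The authors deposited raw counts per gene, without normalization. The submitters' processing notes name fastp, HISAT2, featureCounts, Subread and GRCh38 or hg38, with no versions. Annotation and strand setting were not given in the sources used here, and labels and methods name different kits and read layouts. Library totals were 44103272 to 63693728 counts, and intervals cover no error beyond these libraries.

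Genes were filtered with filterByExpr (19674 of 60649 kept), scaled by TMM (factors 0.989 to 1.01) and tested with the quasi-likelihood test of edgeR 4.0.16 (R 4.3.3), in 1 model of group over all 9 libraries, with Benjamini-Hochberg adjustment over the genes tested. CPM values are TMM-scaled. CPM per kb uses the main GENCODE v44 transcript. Alternatives were DESeq2 1.42.0, other scaling factors and filters, fewer libraries, a gene length trend and a replicate block. The fit was tested on simulated data. Promoters were aligned with Biopython.

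The genes and lists were chosen with earlier results of these data known. Named genes are METTL3, the 10 listed genes, called neighbours within 1 Mb of CXCL5, up to 4 called genes per list and comparison by absolute log2 fold change (mean of at least 1 CPM in a group), and the 5 genes most correlated with CXCL5. CDH1, MUC16, LYZ, CD14, PECAM1, RELA, CXCR6 and marker genes at 0 were named after their values were seen.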

Additional observations from a re-analysis of the deposited data

Results flagged for a closer look

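PPBP was flagged because its differences from NC had opposite signs in the libraries labelled SM2 and SM4. SM4 against SM2 had a log2 fold change of -1.53 (edgeR, adjusted p = 1.36e-13), with 3 of 3 SM4 libraries below all SM2 libraries. This difference follows from the opposite signs in the same libraries, so it is a description and adds no support. Over all alternatives the value lay between -1.57 and -1.47. If the libraries labelled SM4 were the control, PPBP would be higher in both other groups and the signs would not be opposite. PPBP shares 32.2% of its 50-base stretches with an overlapping gene, and reads of that gene were not measured.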

How the results depend on the processing

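Among the log2 fold changes of the 10 listed genes, METTL3 and PPBP, 641 of the values recomputed under the alternatives kept their direction and their side of the threshold and 3 gained a call (CXCL2 and CXCL16 in SM2, values in the report). CXCL16 in SM4 against SM2, at -0.01 (adjusted p = 0.921), changed sign with the gene length trend removed (0.013), with the replicate block together with that trend removed (0.014), without SM2 replicate 1 (0.007) and without SM4 replicate 1 (0.018), and over the fits without 1 library it ranged from -0.05 to 0.018, without a call in any. Of the counts of genes, 125 stayed within 1.5 times the main count. Genes called in SM4 against SM2 numbered 2518, and 1574 to 2748 without 1 library, the lowest without SM4 replicate 1. The count of listed genes with the pattern of CXCL5 was 1, CXCL5 itself, under every alternative run. CXCL5 was selected on that pattern in these same libraries. Its place in this count, and its values among the 641, are therefore no support for the pattern.

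The replicate numbers show no clear pairing of the libraries. Deviations of libraries with the same number correlated by -0.053 to 0.0453, and those of libraries with unlike numbers by -0.0651 to 0.0923. These ranges cannot exclude a weak pairing. With the replicate block 4693, 4484 and 2815 genes were called for SM2 over NC, for SM4 over NC and for SM4 over SM2. Without it the counts were 4389, 4173 and 2518. The block changed no call of a listed gene. Depth limits IL6 most, with 50 to 73 counts per library in SM2. METTL3 levels go against the labels, so which group is the control remains in doubt, and with 3 libraries a group the spread itself is known only roughly.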
